A study of Mus musculus with 6 samples.

Results

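The radial spoke is a T-shaped complex of the motile cilium that stands on each outer microtubule doublet and reaches inward to the central pair of microtubules. It is built of a stalk anchored on the doublet, a neck and a broad head that faces the central pair, and it passes mechanical and chemical signals between the central pair and the dynein motors that bend the cilium. Loss of spoke head proteins in people causes primary ciliary dyskinesia, in which cilia beat abnormally. The genes described here are Rsph1, Rsph4a and Rsph9 of the head, Dnajb13 and Nme5 of the neck, Rsph3a and Rsph3b of the stalk, and the spoke-associated Ropn1l and Rsph14. They were taken by gene symbol from a list of 9 radial spoke genes, and all 9 were present among the 22851 rows of the deposited count table.

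The libraries came from radial glial cells, the neural progenitors of the ventricle wall, isolated from brains of C57BL/6J mice at postnatal days 0 to 3. The cells were grown in medium with 10% serum and then kept without serum for 6 days to become ependymal cells, which carry many motile cilia. The WT group has 3 libraries, from wild-type mice, and the Edf1 knockout group has 3, from mice whose Edf1 gene was disrupted with CRISPR/Cas9. The series text calls the libraries biological replicates, but no label gives an allele or sex or says whether they came from separate animals. Both groups went through the same induction, so the comparison is of genotype at a single time.

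Total counts per library were 13071766 to 28087006, with WT replicate 2 the shallowest. Edf1 was at 13.7% of its WT level in the knockout libraries, with 160 to 373 counts against 1105 to 2193. Of the 31-base words of the Edf1 transcript, 23.3% also occur in other genes, foremost Gm11964 and Gm12274. How reads that fit several places were counted is not given, and their part in the remaining Edf1 counts was not tested. Of 10 markers of multiciliated ependymal cells all were detected. Their summed level was 1419.5 to 1632 CPM (counts scaled to a common library size) in WT and 883 to 913 CPM in the knockout, and 9 of the 10 were called lower, against 14.2% of all tested genes.

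Short stretches of sequence show 2 features of these genes. The first bears on the counts below, and no link of the second to the levels was tested. The first feature is that Rsph3a and Rsph3b are nearly the same gene. Their coding sequences in GENCODE M21 (GRCm38) are identical at 1536 of 1548 aligned bases (99.2%), and 80.7% of the 31-base words of the Rsph3a transcript also occur in Rsph3b. The coding sequence of Rsph3b is longer, at 1602 bases, and its unaligned bases are not part of the 99.2%. The pair of lines below covers the 60 aligned coding bases with the most mismatches, without gaps and within a single exon. They lie at chr17:7946019-7946078 on the plus strand for Rsph3a and at chr17:6948203-6948262 on the minus strand for Rsph3b. Capitals mark the 4 mismatched positions.
Rsph3a: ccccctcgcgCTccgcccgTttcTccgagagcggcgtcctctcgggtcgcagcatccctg
Rsph3b: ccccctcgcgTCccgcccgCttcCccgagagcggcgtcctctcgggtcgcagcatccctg
Even in this coding window a read could be placed on one copy rather than the other by only 4 bases, so counts of the single copies are uncertain. Gapped and noncoding parts of the transcripts, where the copies may differ more, were not searched.

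The second feature lies at the start sites. RFX factors, with Foxj1 the main activators of motile cilia genes, bind inverted repeats known as X-boxes. Of the 9 genes, 6 had a promoter in the RefSeq table (GRCm38.p6, 250 bases before to 50 after the start site). The half-site GTTGCC was present on either strand in 2 of these 6, Ropn1l and Rsph3b, against 14.1% of all genes with a promoter. The forkhead motif TGTTTAC was in 0 of 6, against 4.05% of all genes. A looser inverted repeat, GTNNCNNNGNNAC or GTNNCNNNNGNNAC, was chosen after the promoters had been read. It was found in 4 of 6, Rsph9, Rsph14, Ropn1l and Rsph3b, against 14.5% of all genes, and because it was drawn from these promoters the count supports nothing. It overlaps both half-site matches. The 30 bases around each match are shown 5′ to 3′ on the gene's strand, with the repeat in capitals.
Rsph9: ggctcaggGTCTCCATGGAGACagcttcta
Rsph14: cgctggcaGTCTCCTAGCAACcaggtcgcc
Ropn1l: cagctcggGTTGCCTGGAGACcgcacgcca
Rsph3b: aacctcggGTTGCTCGGCAACcgatggggg
These windows are chr17:46144185-46144214 for Rsph9, chr10:75032579-75032608 for Rsph14, chr15:31453688-31453717 for Ropn1l and chr17:6948326-6948355 for Rsph3b, all on the minus strand. The first base of the repeat lies at -6 for Rsph9 and at -20 for Ropn1l relative to the RefSeq start site. For Rsph14 it lies at -14 or -47, depending on which of its 2 starts is used. In Rsph3b it lies at 10 bases into the RefSeq transcript. The GENCODE genes of Rsph9, Ropn1l and Rsph3b reach further upstream, to 46144216, 31453737 and 6948682, so these repeats lie inside them. A match is a run of letters and not a measured binding site.

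Radial spoke genes were lower as a group in Edf1 knockout cells, but by very different amounts. In edgeR's quasi-likelihood test with Benjamini-Hochberg adjustment over 14243 tested genes, 8 of the 9 fell and none rose at an adjusted p-value under 0.05. The same rule called 14.2% of all tested genes lower and 12.7% higher, or 26.9% in either direction. All 9 passed the filter on low counts. For the same 8 genes every knockout library was below every WT library, which held for 22.1% of all tested genes. The median log2 fold change of the 9 genes was -0.51, against 0.0029 over all tested genes. Single genes ranged from -1.30 for Rsph14 to -0.14 for Rsph3a, the one gene not called. In bulk RNA a smaller share of ciliated cells and less RNA per ciliated cell cannot be told apart.

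**Figure D1:**
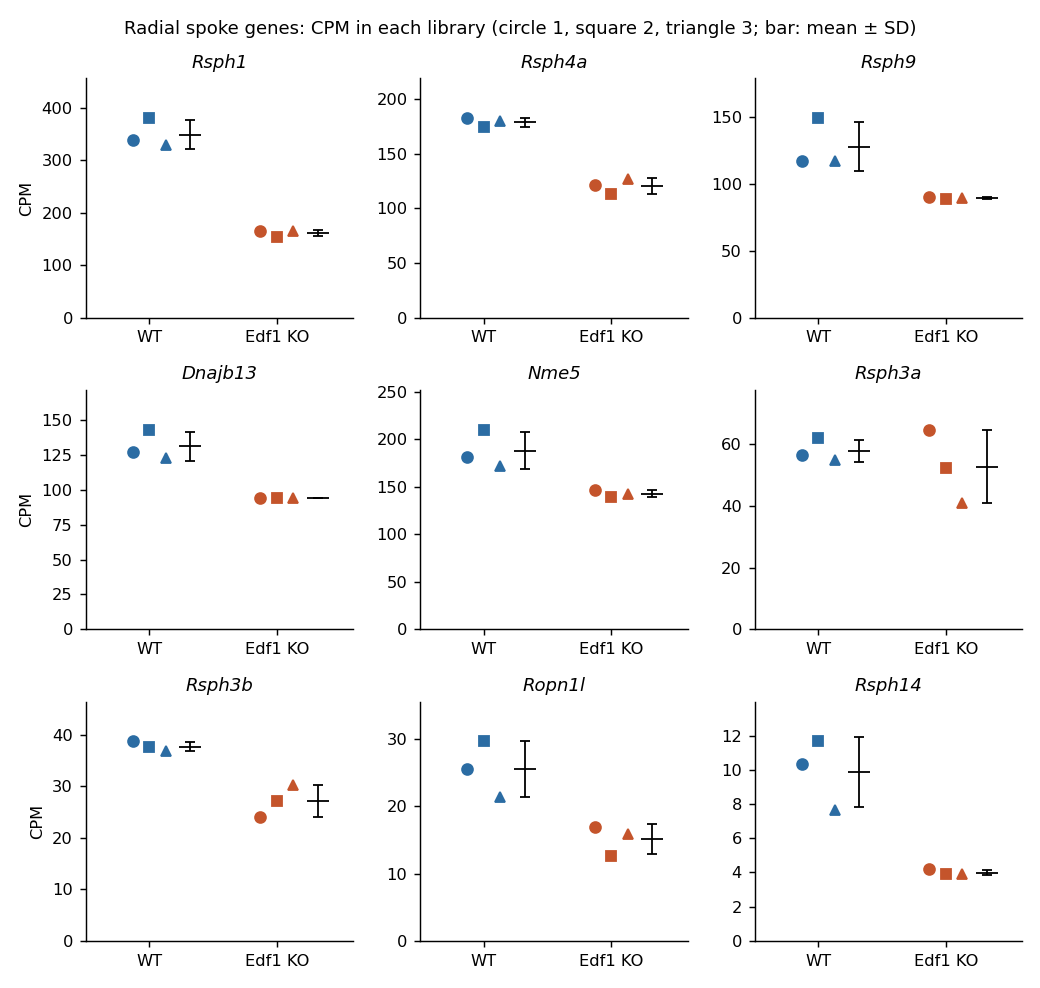
CPM of each radial spoke gene (y axis, from 0) in the 3 WT (blue) and 3 Edf1 knockout libraries (orange), with circles, squares and triangles for replicates 1, 2 and 3 and a black bar for mean ± SD. The groups are apart for every gene but Rsph3a, whose knockout libraries run from 41.0 to 64.6 CPM.

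Among the head genes, Rsph1 lost the most. Rsph1 encodes a head protein with repeated MORN motifs, and mutations in its human counterpart cause primary ciliary dyskinesia. Its level was 338, 379.9 and 329 CPM in WT replicates 1, 2 and 3 and 164, 154 and 166 CPM in knockout replicates 1, 2 and 3. The 2 groups lie far apart and the knockout libraries are close together. The mean fell from 349 ± 27.2 to 161 ± 6.50 CPM (SD, n = 3 each), so that 46.3% of the WT level was left. On the log2 scale this is -1.11 ± 0.060 (SE; edgeR, adjusted p = 2.01e-07).

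Rsph4a encodes the large scaffold of the head. Its level was 182, 174 and 179.96 CPM in the WT libraries and 122, 113 and 127 CPM in the knockout libraries. WT libraries differed little, and the groups did not overlap. Its mean dropped from 179 ± 4.29 to 121 ± 7.15 CPM (SD, n = 3 each). The log2 difference came to -0.57 ± 0.056 (SE; edgeR, adjusted p = 1.27e-05).

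Rsph9, a smaller head protein that binds the Rsph4a scaffold, had 117.5, 149 and 117 CPM in WT and 90.4, 89.2 and 89.6 CPM in the knockout. WT replicate 2 stood above the other WT libraries, while the knockout libraries were almost equal. The Rsph9 mean fell from 128 ± 18.4 to 89.7 ± 0.60 CPM (SD, n = 3 each). In log2 terms the genotypes differed by -0.51 ± 0.083 (SE; edgeR, adjusted p = 0.000672). Without WT replicate 2 it was -0.39.

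Ratios between the head genes were compared within each library. The ratio of Rsph1 to Rsph4a in CPM, not corrected for length, was 1.85, 2.18 and 1.83 in WT against 1.35, 1.36 and 1.30 in the knockout. For Rsph1 to Rsph9 it was 2.88, 2.55 and 2.80 in WT against 1.82, 1.73 and 1.85 in the knockout. Both ratios were lower in every knockout library than in any WT library. The differences of -0.54 and -0.61 on the log2 scale each had p = 0.1 in a two-sided exact permutation test, the smallest that this test allows for 3 against 3 libraries, and 0.133 after adjustment over 4 ratios chosen once the levels were known. The ratio of Rsph4a to Rsph9, 1.17 to 1.55 in WT and 1.27 to 1.42 in the knockout, overlapped between the groups (exact permutation p = 0.7).

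The neck genes fell moderately. Dnajb13 encodes a heat shock co-chaperone that sits in the neck. It had 127, 143 and 123 CPM in WT and 94.1, 94.4 and 93.9 CPM in the knockout, the tightest knockout group of the 9 genes relative to its mean. The Dnajb13 mean fell from 131 ± 10.5 to 94.1 ± 0.25 CPM (SD, n = 3 each). On the log2 scale the difference was -0.48 ± 0.062 (SE; edgeR, adjusted p = 0.000111). Exons of Ucp2 on the opposite strand cover 11.8% of the Dnajb13 exon bases, and whether counting used strand is not given in the sources used here. Ucp2 itself differed by -0.015 ± 0.062 in log2 (SE; edgeR, adjusted p = 0.889).

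Nme5, a protein of the nucleoside diphosphate kinase family, had 182, 209.9 and 172 CPM in WT and 146, 139 and 143 CPM in the knockout. Again WT replicate 2 was the highest, and the groups did not overlap. The Nme5 mean fell from 188 ± 19.6 to 143 ± 3.46 CPM (SD, n = 3 each). The log2 difference came to -0.39 ± 0.068 (SE; edgeR, adjusted p = 0.000963). This was the smallest change among the 8 genes that were called. The ratio of Dnajb13 to Nme5 was 0.681 to 0.715 in WT and 0.643 to 0.678 in the knockout, without overlap, a log2 difference of -0.083 (exact permutation p = 0.1, adjusted 0.133).

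The stalk genes gave the least uniform values. Rsph3 anchors the stalk and binds protein kinase A, and the mouse carries it as the 2 copies shown above, on chromosome 17. Rsph3b had 38.7, 37.6 and 36.9 CPM in WT and 24.1, 27.1 and 30.3 CPM in the knockout. Knockout libraries were all lower but more spread than WT libraries. The Rsph3b mean fell from 37.7 ± 0.94 to 27.2 ± 3.09 CPM (SD, n = 3 each). In log2 terms the genotypes differed by -0.47 ± 0.085 (SE; edgeR, adjusted p = 0.00146).

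Rsph3a had 56.6, 61.9 and 54.9 CPM in WT and 64.6, 52.4 and 41.0 CPM in the knockout. Knockout replicate 1 was above every WT library and knockout replicates 2 and 3 were below all of them. Means were 57.8 ± 3.67 and 52.7 ± 11.8 CPM (SD, n = 3 each), and their log2 difference, -0.14 ± 0.12 (SE), was not called (edgeR, adjusted p = 0.437). Leaving out knockout replicate 3 gave 0.021, and leaving out knockout replicate 1 gave -0.31 (edgeR, adjusted p = 0.0609). Exons of an opposite-strand gene, E430024P14Rik, cover 13.4% of the Rsph3a exon bases.

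Rsph3a took 59.4%, 62.2% and 59.8% of the counts of both copies in the WT libraries and 72.8%, 65.9% and 57.5% in knockout replicates 1, 2 and 3. The 95% Wilson intervals of the 3 knockout shares, 70.5% to 75.1%, 63.4% to 68.3% and 55.4% to 59.7%, do not overlap, and such intervals cover counting error only. The knockout libraries thus differ in this share among themselves by more than counting error. Mean shares were 60.5% ± 1.53 in WT and 65.4% ± 7.66 in the knockout (SD, n = 3 each), and the groups overlapped (two-sided exact permutation p = 0.4, in a test that cannot go below 0.1 here). The difference of 4.94 percentage points shrank to 1.23 when knockout replicate 1 was left out and grew to 8.88 when replicate 3 was left out instead.

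Counted together, the copies fell. Their sum was 95.3, 99.5 and 91.7 CPM in WT and 88.7, 79.5 and 71.3 CPM in the knockout, with no overlap. In a fit with the copies as 1 gene the log2 difference was -0.26 ± 0.075 (SE; edgeR, adjusted p = 0.0219), and 8 of 8 genes were then called lower.

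**Figure D2:**
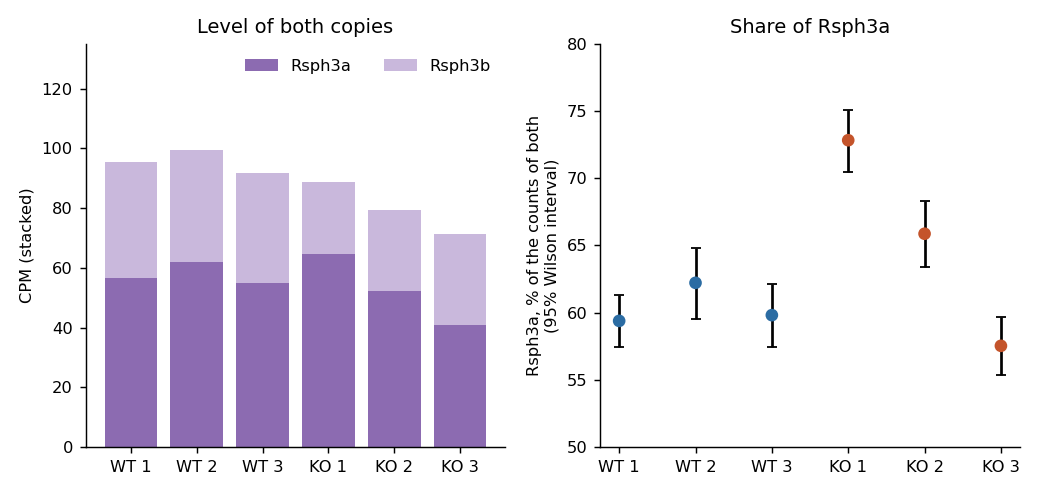
Left, CPM of Rsph3a (dark) and Rsph3b (light) stacked for each library from 0; right, Rsph3a as a percentage of the counts of both copies with 95% Wilson intervals, on an axis from 50% to 80%. The WT shares sit between 59.4% and 62.2%, while the knockout shares run from 57.5% to 72.8%.

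The spoke-associated genes were among the scarcer ones, and both fell. Rsph14, an armadillo repeat protein, was the scarcest of the 9, with 275, 150 and 141 counts in WT against 68, 70 and 110 in the knockout. In CPM that is 10.4, 11.7 and 7.62 for WT and 4.18, 3.90 and 3.89 for the knockout. WT libraries were scattered, knockout libraries were alike, and the groups were apart. The Rsph14 mean fell from 9.88 ± 2.06 to 3.99 ± 0.16 CPM (SD, n = 3 each), to 40.4% of WT. On the log2 scale the difference was -1.30 ± 0.17 (SE; edgeR, adjusted p = 9.67e-05).

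Ropn1l, which has the docking domain by which protein kinase A binds its anchors, had 25.6, 29.6 and 21.4 CPM in WT and 16.9, 12.5 and 15.9 CPM in the knockout. Both groups were spread but did not overlap. The Ropn1l mean fell from 25.5 ± 4.12 to 15.1 ± 2.29 CPM (SD, n = 3 each). The log2 difference came to -0.74 ± 0.13 (SE; edgeR, adjusted p = 0.000999).

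Of the 9 genes, 7 had their highest WT value in the shallow WT replicate 2. Rsph4a and Rsph3b did not. The share of all tested genes highest in that library was not counted, so this is not read as a trait of the spoke genes. Without that library 8 of 9 genes were still called lower, with a median of -0.47, where 2270 of 14419 tested genes were called lower. The part of depth in the high values of WT replicate 2 was not tested.

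Per length of merged exons, the order of the WT levels was Rsph1 (254 ± 19.8 CPM per kb), Nme5 (223 ± 23.3), Rsph9 (113 ± 16.2), Dnajb13 (50.6 ± 4.05), Rsph4a (49.0 ± 1.18), Ropn1l (26.7 ± 4.31), Rsph3a (25.9 ± 1.65), Rsph3b (16.8 ± 0.42) and Rsph14 (3.98 ± 0.83), each as mean ± SD of 3 libraries. The WT ranges of Rsph1 and Nme5, of Dnajb13 and Rsph4a, and of Ropn1l and Rsph3a overlapped, so those neighbours were not separated. In the knockout Nme5 came before Rsph1, at 169 ± 4.10 against 118 ± 4.74 CPM per kb, and Rsph3a before Ropn1l, at 23.6 ± 5.30 against 15.8 ± 2.40 CPM per kb. The places of Rsph3a and Rsph3b rest on counts of the single copies, which are uncertain. Exon lengths were those of GENCODE M21, which need not be the annotation used for counting.

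The genes lie on 5 chromosomes (GRCm38, GENCODE M21). On chromosome 17 are Rsph3b (chr17:6904413-6948682), Rsph3a (chr17:7945614-7979824), Rsph1 (chr17:31255019-31277383) and Rsph9 (chr17:46122035-46144216). Rsph4a (chr10:33905111-33916021) and Rsph14 (chr10:74957477-75032586) share chromosome 10. Dnajb13 is at chr7:100501716-100514960, Ropn1l at chr15:31441211-31453737 and Nme5 at chr18:34562634-34579115. Rsph1, Rsph9, Nme5 and Ropn1l shared no exon base and no 31-base word with another gene, and Rsph4a and Rsph14 shared no exon base and at most 0.53% of their words.

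Foxj1, the forkhead factor that switches on motile cilia genes, served as a yardstick within each library. It had 767, 838 and 759 CPM in WT and 517, 517 and 535 CPM in the knockout, and thus changed by -0.59 ± 0.049 in log2 (SE; edgeR, adjusted p = 3.41e-06). Each spoke gene was divided by Foxj1 in the same library, which removes a change that both share. All 9 ratios use the same Foxj1 values and so are not independent. Single ratios could not go below p = 0.1 in the exact permutation test. The smallest value reached after adjustment over the 9 genes was 0.18. A limma fit of log2 ratios to Foxj1 over 14242 genes, added after the data were seen, called 2 of the 9 lower and 2 higher, against 1.98% and 85.5% of all genes. A rise relative to Foxj1 was thus the usual case among all genes, and a fall was rare. With most genes called, the adjustment raised the p-values of most called spoke genes little. By limma they went from 0.00133 to 0.00188 for Rsph14, 0.00588 to 0.00746 for Nme5 and 0.0136 to 0.0165 for Rsph3a. Those calls therefore rest on nearly unadjusted p-values. For Rsph1 the limma value rose from 1.38e-06 to 1.43e-05.

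Rsph1 was 44.1%, 45.3% and 43.3% of Foxj1 in CPM in WT and 31.8%, 29.8% and 31.004% in the knockout. This ratio fell in every knockout library, by 0.52 on the log2 scale (SE 0.049; limma, adjusted p = 1.43e-05). Rsph14 was 1.35%, 1.39% and 1.004% of Foxj1 in WT and 0.808%, 0.754% and 0.728% in the knockout, with no overlap, and this ratio fell by 0.68 (SE 0.15, adjusted p-value 0.00188 by limma). Both calls held without any single library, with adjusted p-values of at most 0.01004 by limma.

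Nme5 changed in the other direction relative to Foxj1. It was 23.7%, 25.1% and 22.7% of Foxj1 in WT and 28.3%, 26.9% and 26.7% in the knockout, a rise of 0.20 (SE 0.056, adjusted p-value 0.00746 by limma). Without single libraries the adjusted p-value of Nme5 went up to 0.0422 by limma, still under the threshold. Rsph3a rose by 0.43 relative to Foxj1 (SE 0.14, adjusted p-value 0.0165 by limma), but not without knockout replicate 1 (0.26, adjusted p-value 0.0594 by limma) or knockout replicate 2 (0.42, 0.0593).

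Rsph4a was 23.8%, 20.8% and 23.7% of Foxj1 in WT and 23.5%, 21.9% and 23.8% in the knockout. These groups overlap almost fully, and the difference was 0.022 (SE 0.067, adjusted p-value 0.762 by limma). The differences of Rsph9 (0.087), Rsph3b (0.11), Dnajb13 (0.11) and Ropn1l (-0.16) did not pass either, with adjusted p-values of 0.0608 to 0.259 by limma. Without WT replicate 2, Rsph9 (0.16, adjusted p-value 0.00626) and Dnajb13 (0.13, 0.0176) did pass by limma. The other 2 were not called without any single library, but their sizes moved: Rsph3b had 0.046 without knockout replicate 3 and 0.19 without knockout replicate 1, and Ropn1l had -0.039 without knockout replicate 2 and -0.26 without WT replicate 3.

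**Figure D3:**
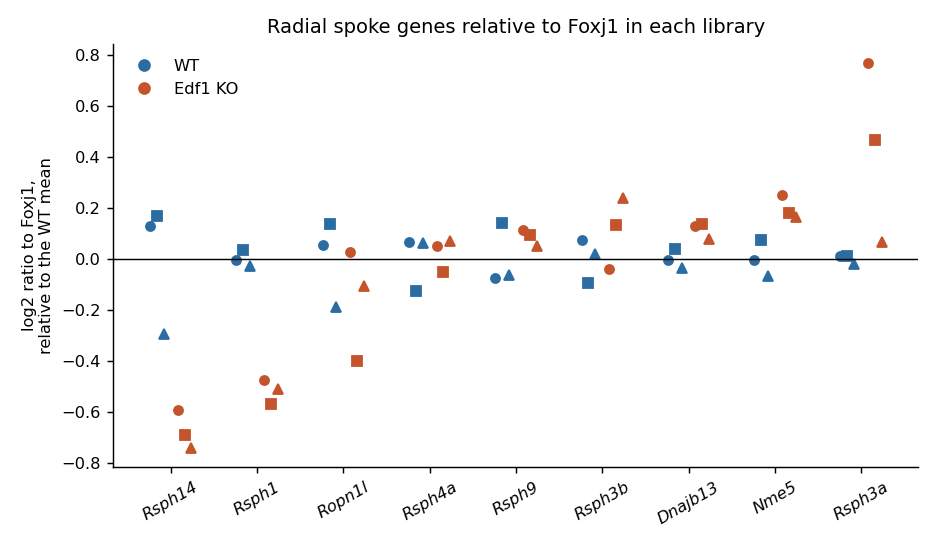
Log2 ratio of each radial spoke gene to Foxj1 in each library (y axis), set to 0 at the WT mean of that gene, for WT (blue) and Edf1 knockout libraries (orange) with 1 marker shape per replicate number. Rsph14 and Rsph1 lie below 0 in all knockout libraries (means -0.68 and -0.52), Rsph4a lies at 0.022, and Nme5 and Rsph3a lie above.

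The choice of yardstick matters for direction. Against Rfx2, an X-box factor whose own log2 change was -0.24 (edgeR, adjusted p = 0.0128), 8 of the 9 genes had a lower ratio in the knockout, from -1.03 for Rsph14 to -0.16 for Nme5, and Rsph3a had 0.080. The smallest exact permutation p of these ratios was again 0.1. The share of all genes with a lower ratio to Rfx2 was not counted, so the count of spoke genes has no background here.

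Further genes of the spokes were described as a second list. Of 17 symbols written down, 14 were rows of the table and 12 were tested, of which 10 fell and none rose (background 14.2%), with a median log2 fold change of -0.65. The knockout libraries were all below the WT libraries for 11 of the 12, against 22.1% of all tested genes. The list holds the calmodulin- and spoke-associated complex at the spoke base, head proteins of single spokes and small spoke-associated proteins.

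The largest of these changes was in Lrrc23, a head protein of the third spoke. It stood at 388, 454 and 381 CPM in WT against 171, 163 and 183 CPM in knockout libraries, well apart, a log2 difference of -1.24 ± 0.069 (SE; edgeR, adjusted p = 2.28e-07). Cfap206, a base protein of the second spoke, went from 148 ± 13.9 to 74.4 ± 1.66 CPM (SD, n = 3 each), or -0.99 in log2. Genes of the base complex fell as well, with -0.83 for Cfap61, -0.78 for Wdr66 (also called Cfap251) and -0.67 for Maats1 (also called Cfap91). Morn3, with MORN motifs like Rsph1, had -0.92, but 32.2% of its exon bases are shared with a gene on the opposite strand.

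Smaller falls were seen for Dydc2 (-0.63), Spa17 (-0.60, with 39.4% of its exon bases covered by Siae on the opposite strand), Ppil6 (-0.58) and Iqub, of the first spoke (-0.39). Adjusted p-values of these 4 genes were at most 0.000678 by edgeR. Dydc1 had -0.59 (SE 0.22) at 33 to 97 counts and did not pass (adjusted p-value 0.0642 by edgeR), but did so without WT replicate 2 (-0.71, 0.0228). Cyb5d1 had -0.082 ± 0.056 (SE; edgeR, adjusted p = 0.313), and 50.1% of its 31-base words also occur in Gm6685.

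The paralogs used in sperm were almost silent. Rsph6a, the testis counterpart of Rsph4a, had 0 to 4 counts in a library, and Ropn1, the counterpart of Ropn1l, had 8 counts in WT replicate 1 and at most 1 in any other library. Neither was tested. A level at or under 3 counts, 0.106 to 0.233 CPM in these libraries, was taken as the floor for counting error.

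**Figure D4:**
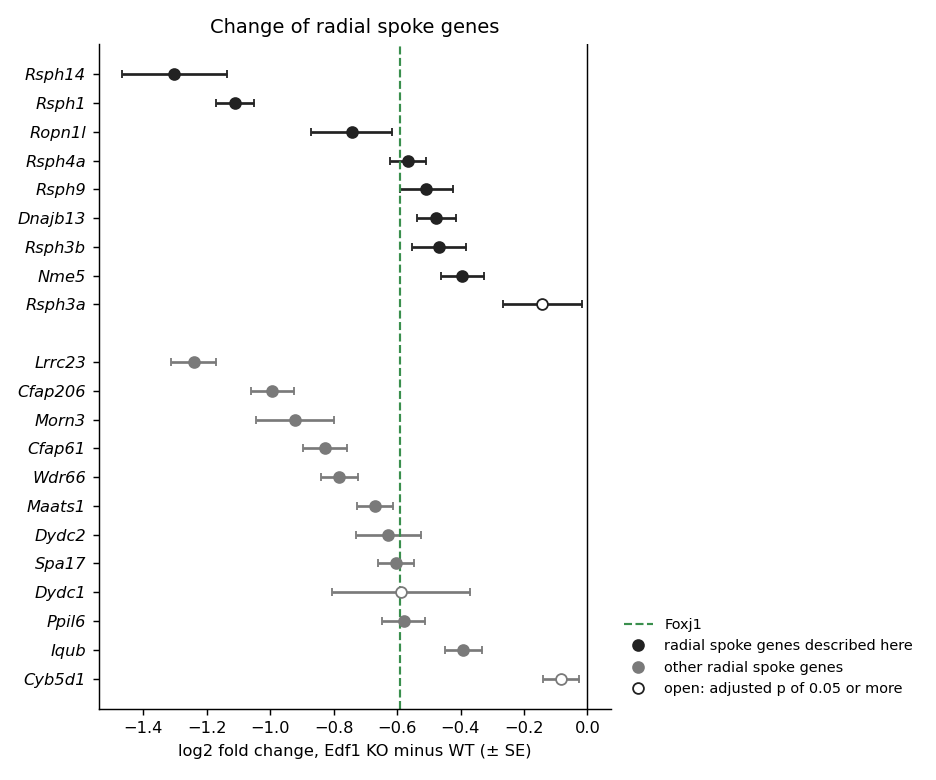
Log2 fold change, Edf1 knockout minus WT, with SE for the 9 radial spoke genes (black) and 12 further spoke genes (grey); open circles did not pass an adjusted p-value of 0.05 and the dashed line is Foxj1 at -0.59. Rsph14, Lrrc23 and Rsph1 lie farthest to the left, at -1.30, -1.24 and -1.11.

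Genes of neighbouring structures of the axoneme also fell, where 14.2% of all tested genes were called lower. Of 13 genes of the central apparatus, the structure the spoke heads touch, all 13 fell, with a median of -0.60 and a range from -1.78 to -0.21. Of 10 genes of the nexin-dynein regulatory complex, which sits beside the spoke base, 9 fell, with a median of -0.66 and a range from -1.22 to -0.16. The first count was 11 to 13 and the second 8 to 10 under the alternatives run, and no difference between the lists was tested. Of 7 regulators of multiciliation, 5 fell and none rose (Foxj1, Rfx2, Mcidas, Trp73 and Myb), and Gmnc and Rfx3 did not pass.

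**Figure D5:**
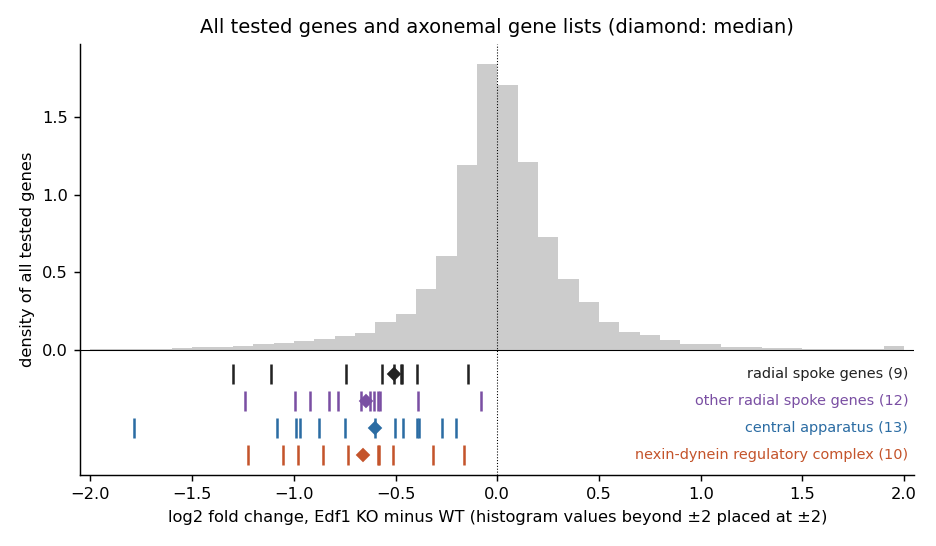
Density of the log2 fold changes of all 14243 tested genes (grey; values beyond 2 in either direction are drawn at the edge), with each gene of 4 axonemal lists as a tick below and its list median as a diamond. All ticks lie left of 0, and the medians are -0.51, -0.65, -0.60 and -0.66 from top to bottom.

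The genes whose profile over the 6 libraries was closest to the mean of the 9 spoke genes were Aard, H2ax, Cenpp, Maats1 and Wdr93. Closeness was the root mean square difference of centred log2 CPM, which was 0.031 to 0.039 for these 5 among 12880 candidates. For the spoke genes themselves it was 0.087 for Dnajb13, the most typical, and 0.34 for Rsph14, the least. Maats1 is itself a spoke base gene. H2ax encodes a histone variant and Cenpp a centromere protein.

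Some marker lists of other cells in the cultures moved as well, read against 14.2% of all tested genes called lower and 12.7% higher. Of 10 microglial markers 9 were called lower, with a median of -0.62 and a summed level of 1853 to 1981 CPM in WT and 1227 to 1249 CPM in the knockout. Of 11 fibroblast, mural and endothelial markers 7 were tested and all 7 were higher. Sums of all 11 were 564 to 606 CPM in WT and 727 to 814 CPM in the knockout. The 7 were Col1a1, Col1a2, Col3a1, Dcn, Lum, Pdgfrb and Acta2, so no endothelial marker was tested. Of the untested genes, Rgs5 (0.386 to 0.269 CPM) and Pecam1 (0.205 to 0.137) had lower means in the knockout. Cdh5 had a higher mean (0.219 to 0.800 CPM), and Cldn5 stayed at or under the floor. Of 10 radial glia and astrocyte markers 3 were higher and 1 lower, with sums of 10473 to 10976 and 11402.5 to 11838 CPM. The remaining lists were nearer to these shares or rest on few genes. Neuronal markers had 2 of 7 tested lower (sums 255 to 330 and 274 to 290.4 CPM), and oligodendrocyte markers had 1 of 8 lower and 1 higher (453 to 492 and 423 to 441 CPM). Choroid plexus markers, from an epithelium that also carries motile cilia, had 1 of 6 higher and overlapping sums (110.5 to 137 and 122 to 145 CPM). Pituitary markers had 3 of 4 higher and 1 lower (17.2 to 20.4 and 28.96 to 35.5 CPM), with Fshb at 0 in every library. Prl and Gh, the latter untested, went undetected in WT and reached mean levels of 8.85 and 0.670 CPM in the knockout. Mean CPM of Cga rose from 0.118 to 2.61 and that of Pomc from 3.50 to 13.3, while Lhb fell from 14.7 to 5.59. The part of these shifts in the fall of the spoke genes was not tested.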

How the data were processed

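RNA from 3 WT and 3 Edf1 knockout cultures was extracted with TRIzol, and the library kit was MGIEasy mRNA according to the labels. The deposited values are whole-number counts per gene symbol, 1 column per library, which the authors made with FastQC 0.11.2, cutadapt 1.11 and HISAT2 2.1.0 on GRCm38, per the submitters' processing notes; the counting program, annotation, strand setting and treatment of reads that fit several places are not given in the sources used here. The table had 0 rows without a gene name.

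Counts were analysed in R 4.3.3. Filtering with filterByExpr of edgeR 4.0.16 left 14243 of 22851 genes. TMM-scaled libraries were compared with edgeR's quasi-likelihood test without covariates, at a Benjamini-Hochberg adjusted p-value of 0.05 over all tested genes, and each SE was the absolute log2 value over the root of its F statistic. Log2 CPM used a prior count of 2. Ratios and shares were compared with exact permutation tests (SciPy 1.17.1). Coding sequences were aligned with Biopython 1.88. Alternatives were DESeq2 1.42.0, voom of limma 3.58.1, other scalings and filters, a stricter threshold, a GC and length correction from GENCODE M21 transcripts, the copies of Rsph3 summed, a replicate block and each library left out. The fits were tested on simulated data.

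The spoke genes and all lists were chosen with earlier results of these data known. Genes named singly are the 9 spoke genes, Edf1, the further spoke genes, the regulators of multiciliation and the 5 genes closest in profile with a mean log2 CPM of at least 1; others were named after their values were seen. Protein sequences were not used here.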

Additional observations from a re-analysis of the deposited data

How the results depend on the processing

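The count of radial spoke genes called lower was 8 under every alternative run, and their median log2 fold change stayed between -0.56 and -0.43. Of the 8 called genes none lost its call under any of these alternatives, including the replicate block, which called 8 spoke genes lower with a median of -0.50. Deviations from the group means correlated at 0.069, 0.060 and 0.037 between WT and knockout libraries of the same number. Between libraries of different numbers the values were lower, at -0.072 to 0.029. All were small, the main fit did not take the numbers as pairs, and whether they mark pairs was not tested. With the block 4065 genes were called in place of 3833, and no call of a named gene changed. A threshold of 0.01 lowered the count of called genes to 2213 (1248 lower, 965 higher), and single libraries left out gave 2658 to 4340. Central apparatus genes called lower numbered 11 at 0.01 and with library size alone, 12 with a mean of at least 50 counts, and 11 to 13 when single libraries were left out. Rsph3a had -0.31 to 0.021 when single libraries were left out, and the cause was not tested. With Rfx2 in place of Foxj1 the median ratio turned from 0.087 to -0.27, and Rsph3b (-0.24), Rsph4a (-0.33), Rsph9 (-0.27), Dnajb13 (-0.24) and Nme5 (-0.16) turned with it, since Rfx2 fell less than Foxj1. Rsph4a relative to Foxj1 had -0.042 to 0.060 when single libraries were left out. Rfx3 turned to -0.16 and Cyb5d1 to 0.038 under the GC and length correction, and Rfx3 had -0.14 to 0.15 when single libraries were left out; the cause was not tested. Rfx2 lost its call at 0.01 and when knockout replicate 2 (edgeR, adjusted p = 0.0557) or 3 (0.0703) was dropped. Gmnc was called without WT replicate 2 (-0.22) and with GC and length corrected (-0.28). With 68 to 275 counts Rsph14 was the least precise of the spoke genes, with -1.45 to -1.19 over the alternatives.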
